A study of Mus musculus with 16 samples.

Results

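A group of 36 genes was followed in macrophages sorted from mouse muscle, made up of 27 immediate early genes and 9 heat shock genes that cells are known to switch on while a tissue is taken apart. The genes were chosen by symbol from a named list, and all 36 were found among the 24421 gene symbols of the count table. Each of them passed the filter on low counts that left 13649 genes for testing. Macrophages were sorted as F4/80-positive cells, and their RNA was amplified into full-length cDNA with SMART-Seq V4 and sequenced. The 4 groups of 4 libraries each were GLUD1 KO and WT macrophages of CTX-injected muscle, and GLUD1 KO and WT macrophages of normal muscle. The labels name the injected agent only as CTX, and the design text places the injured samples at the greatest muscle damage and the normal samples at baseline. GLUD1 is glutamate dehydrogenase, the mitochondrial enzyme that turns glutamate into alpha-ketoglutarate. The sources used here do not give how the gene was deleted, the promoter of any Cre, the age and sex of the mice or any pooling of animals. No label ties a library to a mouse of its own, and p-values therefore measure the spread between libraries, part or all of which may be technical.

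Immediate early genes are transcribed within minutes of a stimulus from factors already present in the cell, such as serum response factor and CREB, and need no new protein synthesis. Their products include the FOS and JUN subunits of the AP-1 transcription factor, zinc finger and nuclear receptor factors, and feedback inhibitors that end the response. Heat shock genes are driven by heat shock factor HSF1 when proteins misfold, and encode chaperones. Both sets are well known to be induced by warm enzymatic digestion and mechanical handling of tissue, and macrophages also use many of the same genes in inflammation.

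Library totals ran from 17051892 to 23097420 counts. All 10 macrophage defining markers exceeded 1 CPM (counts scaled to a common library size) on average in each group. Glud1 itself lay at 327 to 351 CPM in KO CTX and 348 to 391 CPM in WT CTX libraries, and at 209.8 to 272 CPM in KO normal and 219 to 292 CPM in WT normal libraries. These ranges overlap, and counts over the whole gene may include exons that a deletion leaves, so they do not check the genotypes, and KO and WT are used as the labels give them. Scaling factors (TMM) were 0.76 to 0.87 in CTX-injected and 1.13 to 1.34 in normal libraries, so levels are given as CPM scaled by these factors, and the effect of leaving the scaling out is given beside the counts it moves. Xist, the RNA of the inactive X chromosome, marked KO normal library 5 and WT normal libraries 5 and 6 as female, and the other 13 libraries carried Y-linked RNA instead. KO normal library 5 and WT normal library 6 also stood apart in the nuclear RNA Malat1, at 7304 and 6966 CPM, against 745 to 2567 CPM in the other 14.

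Sequences upstream of the members differ between the 2 kinds of gene and are shown to set beside the values. RefSeq promoters of 300 bases on GRCm38.p6, the build that mm10 names, were found for 31 of the 36 members, 24 immediate early and 7 heat shock, and for 27025 genes in all. Each runs from 250 bases before to 50 after the start of transcription. Egr1, Egr3, Ier2, Hspa8 and Hsp90aa1 are named without one. The first 4 sequences are heat shock genes, chosen because Hspa1a, Hspa1b and Hspb1 showed the greatest falls of that kind and Hspe1 one of the smallest. Capitals mark GAANNTTC and TTCNNGAA, each a pair of inverted heat shock units, as searched on both strands. The first 3 hold GAANNTTC, and in Hspe1 overlapping matches of both make a run of inverted units. Hspa1a, chr17:34972107-34972406, minus strand, and Hspa1b, chr17:34959189-34959488, minus strand, encode near-identical inducible HSP70 proteins from neighbouring genes of a single exon each. Hspb1, chr5:135887669-135887968, plus strand, encodes the small chaperone HSP27. Hspe1, chr1:55087898-55088197, plus strand, encodes the mitochondrial co-chaperonin HSP10.
Hspa1a: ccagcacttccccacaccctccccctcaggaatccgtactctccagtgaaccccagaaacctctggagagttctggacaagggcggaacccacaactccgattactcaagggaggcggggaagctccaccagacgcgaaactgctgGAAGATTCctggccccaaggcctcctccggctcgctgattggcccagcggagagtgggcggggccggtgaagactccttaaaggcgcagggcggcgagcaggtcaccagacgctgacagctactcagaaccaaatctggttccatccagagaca
Hspa1b: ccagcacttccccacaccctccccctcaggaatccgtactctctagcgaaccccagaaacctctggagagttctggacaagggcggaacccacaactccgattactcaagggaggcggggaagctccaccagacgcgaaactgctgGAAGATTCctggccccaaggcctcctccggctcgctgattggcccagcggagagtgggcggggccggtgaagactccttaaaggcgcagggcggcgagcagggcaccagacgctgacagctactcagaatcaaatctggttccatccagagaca
Hspb1: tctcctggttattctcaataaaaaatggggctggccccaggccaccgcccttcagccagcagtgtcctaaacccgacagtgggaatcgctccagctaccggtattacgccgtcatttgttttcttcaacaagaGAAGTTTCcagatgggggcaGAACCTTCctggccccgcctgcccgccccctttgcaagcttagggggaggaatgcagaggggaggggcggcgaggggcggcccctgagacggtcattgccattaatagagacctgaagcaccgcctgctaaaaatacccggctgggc
Hspe1: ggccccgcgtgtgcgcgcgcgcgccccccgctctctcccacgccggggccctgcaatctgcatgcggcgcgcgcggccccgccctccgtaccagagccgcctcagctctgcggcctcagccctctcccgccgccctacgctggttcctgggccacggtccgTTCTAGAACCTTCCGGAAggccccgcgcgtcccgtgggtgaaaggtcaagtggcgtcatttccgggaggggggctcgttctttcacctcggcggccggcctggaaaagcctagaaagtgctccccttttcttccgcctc

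The other 2 promoters belong to immediate early genes and are shown because they hold the cAMP response element, the binding site of CREB, whose letters TGACGTCA are in capitals. Btg2, chr1:134079106-134079405, minus strand, encodes a brake on cell division. Dusp1, chr17:26508423-26508722, minus strand, encodes a phosphatase that switches off MAP kinases.
Btg2: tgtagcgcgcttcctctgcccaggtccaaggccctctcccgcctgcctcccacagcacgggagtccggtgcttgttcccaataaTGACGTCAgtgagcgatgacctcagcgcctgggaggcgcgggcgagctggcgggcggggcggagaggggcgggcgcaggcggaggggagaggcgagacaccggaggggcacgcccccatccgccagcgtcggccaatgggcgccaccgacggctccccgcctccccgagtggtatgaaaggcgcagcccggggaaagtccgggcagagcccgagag
Dusp1: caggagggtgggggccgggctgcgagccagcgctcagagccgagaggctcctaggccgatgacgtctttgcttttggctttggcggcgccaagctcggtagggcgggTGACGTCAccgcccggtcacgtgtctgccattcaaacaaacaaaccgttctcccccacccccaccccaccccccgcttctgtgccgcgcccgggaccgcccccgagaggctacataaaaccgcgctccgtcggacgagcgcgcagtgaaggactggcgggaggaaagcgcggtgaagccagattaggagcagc

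GAANNTTC was found in 6 of 7 heat shock promoters (85.7%), 2 of 24 immediate early promoters (8.33%) and 9.04% of all promoters. TTCNNGAA, which can overlap it, was found in 2 of 7 heat shock promoters (28.6%), 1 of 24 immediate early promoters (4.17%) and 9.6% of all promoters. A heat shock element of 3 alternating units was found in Hsph1 and Hspe1, in no immediate early promoter and in 0.662% of all promoters. In Hspa1a and Hspa1b the match began 104 bases before the start, and the 2 promoters were identical at 296 of 300 bases (98.7%). TGACGTCA was found in Btg2, Dusp1, Maff and Ppp1r15a, 4 of 24 immediate early promoters (16.7%), in no heat shock promoter and in 2.03% of all promoters. The match began 166 bases before the start in Btg2 and 143 in Dusp1. The serum response site called the CArG box was found in Egr2 and Zfp36 (8.33% of the immediate early promoters), against 1.81% of all promoters. The AP-1 site TGANTCA was found in no member promoter and in 8.97% of all promoters. These are matches of letters in a short window, and factor binding was not measured.

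Most members were lower in macrophages of CTX-injected than of normal muscle, in both genotypes, and the median of the heat shock genes lay below that of the immediate early genes. In KO, 20 of 27 immediate early genes fell, 3 rose and 4 passed the test in neither direction. In WT, 19 of 27 fell, 3 rose and 5 passed in neither. All 9 heat shock genes fell in each genotype. Calls rest on edgeR's quasi-likelihood test over all 16 libraries with Benjamini-Hochberg adjustment over 13649 genes and a threshold of 0.05. The share of all tested genes called lower was 40.2% in KO and 39.4% in WT, and the share called higher was 33.3% in KO and 33.3% in WT. Falls of at least 2-fold were called for 24 of 36 members in each genotype, 15 immediate early and 9 heat shock, against 29.2% of all tested genes in KO and 28.4% in WT. The median log2 fold change was -1.34 in KO and -1.24 in WT for immediate early genes, and -2.33 in KO and -2.91 in WT for heat shock genes, a difference in medians that was not tested. In KO, Hspa8, Hsp90aa1 and Hspe1, at -1.33, -1.19 and -1.01, fell by less than the immediate early median, and with limma voom the KO medians were -1.70 for heat shock and -1.37 for immediate early genes. Without KO normal library 3 the KO medians by edgeR were -1.76 for heat shock and -1.40 for immediate early genes. The median of all tested genes was -0.16 in KO and -0.15 in WT. The same 28 members fell in both genotypes, and Ier3, Socs3 and Maff rose in both. The share of all tested genes called the same way in both genotypes was not counted, so this match is not read as particular to the members. With bulk RNA of sorted cells, fewer cells of a type and less RNA per cell cannot be told apart.

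**Figure D1:**
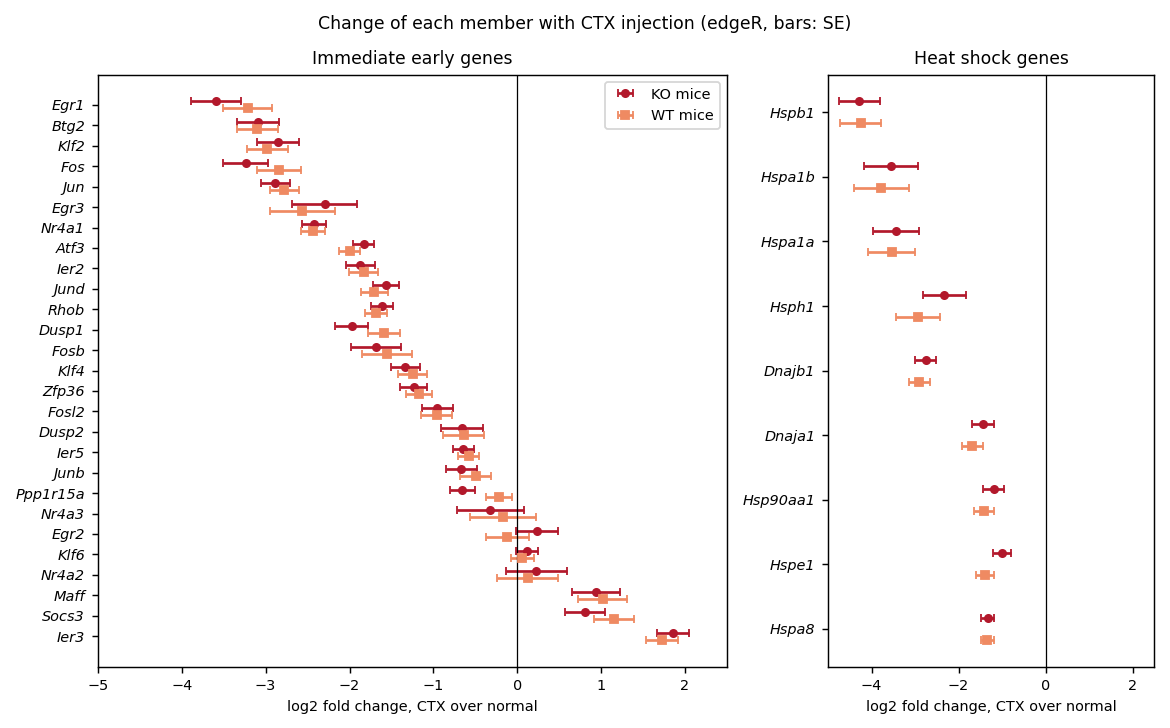
Log2 fold change of each member in CTX-injected over normal muscle (points, edgeR) with its standard error (bars), for KO (circles) and WT (squares), with immediate early genes in the left panel and heat shock genes in the right. All 9 heat shock genes lie left of 0, while Maff, Socs3 and Ier3 lie right of it in both genotypes.

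In KO, 29 of 36 members lay lower in CTX-injected muscle with no overlap between libraries, and in WT 26 of 36 did, against 35.5% of all tested genes in KO and 34.9% in WT. With library totals in place of the TMM factors, the median of all genes moved to -0.77 in both genotypes. The immediate early median was then -1.95 in KO and -1.87 in WT, and the heat shock median was -2.91 in KO and -3.52 in WT. On that scale 31 of 36 members were called lower in each genotype, against 61.5% of all tested genes in KO and 61.2% in WT. Those called higher were 1 member in KO and 2 in WT, against 14.1% of all tested genes in KO and 14.2% in WT. The heat shock median was the lower on both scales, and Ier3 was higher on both.

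Among the AP-1 subunits, Fos and Jun were both lower in every CTX library than in any normal library, and Junb differed much less. Jun, whose product pairs with FOS proteins to form AP-1, lay at 426, 475, 439 and 447 CPM in KO CTX libraries, against 3146, 3669, 2415 and 3960 CPM in KO normal libraries. In WT, Jun lay at 504, 433, 421 and 453 CPM in CTX libraries, against 3943, 2369, 2926 and 3179 CPM in normal libraries. Every CTX library was below every normal library, by a wide gap in each genotype, and library 3 was the lowest normal library in both. Log2 fold changes of Jun were -2.88 ± 0.17 in KO and -2.78 ± 0.17 in WT (SE, edgeR adjusted p = 1.80e-09 and 2.29e-09).

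Fos, the partner of Jun, averaged 302 ± 44.6 CPM in KO CTX and 2847 ± 818 CPM in KO normal libraries (SD, n = 4 each). Its WT means were 349.7 ± 50.4 CPM in CTX and 2500.3 ± 859 CPM in normal libraries. Its log2 fold changes were -3.24 in KO and -2.84 in WT, with no overlap. Jund, the highest immediate early gene per kilobase of exon in normal muscle, had 631, 829, 744 and 731 CPM in KO CTX libraries, against 1942, 2014, 2192 and 2533 CPM in KO normal libraries. WT macrophages had 631, 665, 957 and 665 CPM of Jund in CTX libraries, against 2409, 1902, 2818 and 2389 CPM in normal libraries. The groups of Jund stayed apart in both genotypes, with log2 fold changes of -1.56 ± 0.16 in KO and -1.71 ± 0.16 in WT, and an antisense gene, Gm11175, overlaps 52.6% of its exons. Since the kit keeps no strand, reads of that pair cannot be told apart. Fosb and Fosl2, further FOS family subunits, fell in both genotypes, with log2 fold changes of -1.69 in KO and -1.55 in WT for Fosb and -0.95 in KO and -0.96 in WT for Fosl2.

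Junb, a JUN family member, had log2 fold changes of -0.67 ± 0.18 in KO and -0.50 ± 0.18 in WT (edgeR adjusted p = 0.00385 and 0.0227). Its WT libraries overlapped between CTX-injected and normal muscle, with normal library 3 at 1796 CPM below 3 of the CTX libraries. The WT call was lost without CTX library 4 (-0.40, adjusted p = 0.0775), normal library 2 (-0.42, adjusted p = 0.0668) or normal library 5 (-0.45, adjusted p = 0.0526), each by edgeR.

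**Figure D2:**
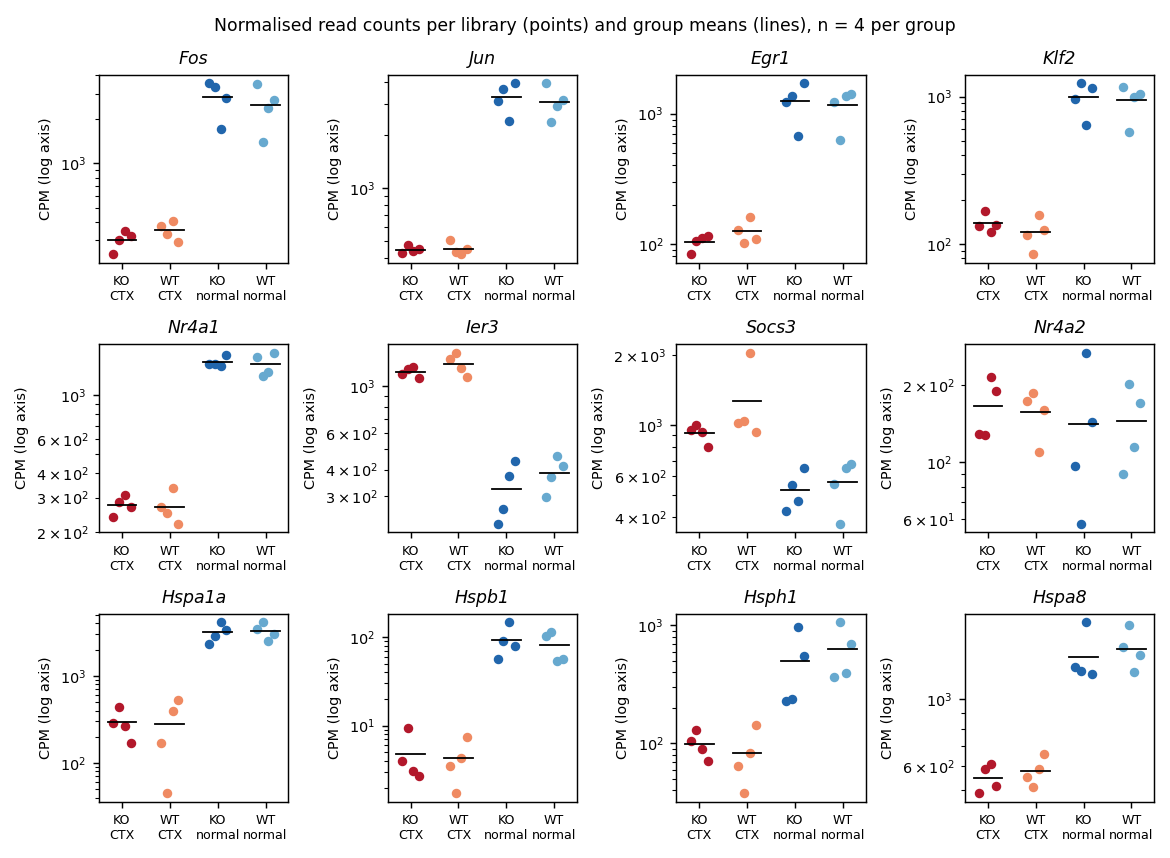
Normalised read counts (TMM-scaled CPM, log axis) of 12 members in every library (points), with the mean of each group of 4 as a line, for KO CTX, WT CTX, KO normal and WT normal macrophages. Fos, Jun, Egr1, Klf2, Nr4a1 and the 4 heat shock genes lie lower in CTX-injected muscle without overlap, Ier3 and Socs3 lie higher, and Nr4a2 overlaps.

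Zinc finger and nuclear receptor factors split into genes with large falls and genes with none called. Nr4a1 (Nur77), an orphan nuclear receptor that restrains inflammatory genes in macrophages, had the smallest p of the immediate early genes in WT. Its libraries held 238, 285, 309 and 269 CPM in KO CTX, against 1444, 1444, 1409 and 1603 CPM in KO normal macrophages. In WT they held 268, 250.1, 337 and 221 CPM in CTX, against 1580, 1255, 1315 and 1654 CPM in normal macrophages. All CTX libraries lay below all normal ones and the normal libraries were close to each other, with log2 fold changes of -2.42 ± 0.14 in KO and -2.43 ± 0.14 in WT (edgeR adjusted p = 1.69e-09 and 1.52e-09).

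Egr1, a zinc finger factor of the growth factor response, had the greatest fall of the immediate early genes. It averaged 104 ± 14 CPM in KO CTX and 1249 ± 436 CPM in KO normal libraries, a log2 fold change of -3.59 ± 0.30 (SE). The WT means were 125 ± 26.2 CPM in CTX and 1161 ± 367 CPM in normal libraries, a log2 fold change of -3.21 ± 0.29. Egr3, a relative of Egr1, was the lowest member per kilobase in every group and fell with log2 fold changes of -2.29 in KO and -2.56 in WT. Klf2, a factor that holds myeloid cells quiescent, fell with values of -2.85 in KO and -2.98 in WT, and Klf4, its relative, with values of -1.34 in KO and -1.24 in WT. Fos, Egr1, Egr3, Klf2 and Klf4 were singled out after their values were seen.

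Atf3, a stress-induced repressor of inflammatory genes, had 448, 406, 395 and 338 CPM in KO CTX libraries, against 1462, 1484, 1228 and 1470 CPM in KO normal libraries. WT libraries had 425, 328, 371 and 386 CPM of Atf3 in CTX-injected muscle, against 1687, 1356, 1653 and 1335 CPM in normal muscle. The groups were far apart and tight, with log2 fold changes of -1.83 ± 0.13 in KO and -2.0 ± 0.13 in WT (edgeR adjusted p = 7.37e-09 and 3.10e-09). Rhob, a small GTPase of endosome transport, had 142, 139, 129 and 116 CPM in KO CTX libraries, against 374, 457, 343 and 432 CPM in KO normal libraries. For WT the values of Rhob were 134, 112, 99.3 and 130.4 CPM in CTX libraries, against 441, 327, 390.2 and 376 CPM in normal libraries. Rhob did not overlap in either genotype, and its log2 fold changes were -1.61 ± 0.13 in KO and -1.69 ± 0.13 in WT (edgeR adjusted p = 3.10e-08 and 1.94e-08).

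Btg2, Dusp1, Zfp36, Ier2 and Ier5 were lower in CTX-injected muscle in both genotypes. Btg2, whose promoter is printed above, averaged 156 ± 14.6 CPM in KO CTX and 1329 ± 345 CPM in KO normal libraries, 8.51-fold lower. In WT, Btg2 averaged 139.7 ± 25.3 CPM in CTX and 1195 ± 367 CPM in normal libraries, 8.55-fold lower. Dusp1 was 3.93-fold lower in KO and 3.01-fold lower in WT. Zfp36 (tristetraprolin), which speeds the decay of cytokine mRNAs, was 2.35-fold lower in KO and 2.25-fold lower in WT. Ier2 and Ier5, a pair of early response genes, fell in both genotypes, with log2 fold changes of -1.87 in KO and -1.83 in WT for Ier2 and -0.64 in KO and -0.58 in WT for Ier5.

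Dusp2, a nuclear phosphatase of ERK and p38, was called lower in both genotypes with log2 fold changes of -0.66 ± 0.25 in KO and -0.64 ± 0.25 in WT, near the threshold (edgeR adjusted p = 0.0254 and 0.0296). The KO call of Dusp2 was lost without CTX library 1 (-0.60, edgeR adjusted p = 0.0654), CTX library 3 (-0.65, adjusted p = 0.0501), normal library 3 (-0.59, adjusted p = 0.0578) or normal library 5 (-0.52, adjusted p = 0.0831). The WT call was lost without CTX library 1 (-0.58, edgeR adjusted p = 0.0756), CTX library 2 (-0.55, adjusted p = 0.0847), CTX library 4 (-0.55, adjusted p = 0.0857) or normal library 6 (-0.35, adjusted p = 0.164).

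Ier3, Socs3 and Maff went against the other immediate early genes. Ier3, an early response gene that affects cell survival and ERK signalling, had 1145, 1214, 1235 and 1095 CPM in KO CTX libraries, against 221, 260.4, 375 and 438 CPM in KO normal libraries. In WT, Ier3 had 1344, 1449, 1222 and 1108 CPM in CTX libraries, against 298, 368, 466 and 418 CPM in normal libraries. Every CTX library exceeded every normal one by more than 2-fold, and the log2 fold changes were 1.86 ± 0.19 in KO and 1.72 ± 0.19 in WT (edgeR adjusted p = 4.25e-07 and 8.96e-07). Per kilobase of exon, Ier3 was the highest of the 36 members in CTX-injected muscle, at 1037 CPM per kb in KO and 1132 in WT, and stood at 286 in KO and 343 in WT normal macrophages.

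Socs3, which blocks signalling by IL-6 family cytokines through STAT3, had 949, 999, 935 and 799 CPM in KO CTX libraries, against 427, 552, 472 and 655 CPM in KO normal libraries. Its WT values were 1022, 1041, 2044 and 933 CPM in CTX libraries, against 556, 376, 654 and 675 CPM in normal libraries. WT CTX library 3 was far above the other CTX libraries, and the groups did not overlap in either genotype. The log2 fold changes of Socs3 were 0.81 ± 0.24 in KO and 1.16 ± 0.24 in WT (edgeR adjusted p = 0.00602 and 4.17e-04). With library totals the groups overlapped, and the KO value of 0.19 was not called (edgeR adjusted p = 0.449).

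Maff, a small MAF protein that binds DNA as a partner of larger leucine zipper factors, had 95.2, 96.2, 107 and 95.1 CPM in KO CTX libraries, against 40.4, 29.8, 71.7 and 64.0 CPM in KO normal libraries. WT macrophages had 126, 130.1, 186 and 83.9 CPM of Maff in CTX libraries, against 33.9, 79.2, 71.7 and 75.2 CPM in normal libraries. The groups stayed apart but came close, WT CTX library 4 lying just above the highest normal library. Log2 fold changes of Maff were 0.94 ± 0.29 in KO and 1.02 ± 0.29 in WT (edgeR adjusted p = 0.00837 and 0.00495). With library totals they were 0.35 in KO (edgeR adjusted p = 0.228) and 0.41 in WT (adjusted p = 0.16), and neither was called.

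Egr2, Nr4a2, Nr4a3 and Klf6 passed the test in neither genotype. Nr4a2 (Nurr1), an orphan nuclear receptor, had 129, 127, 215 and 189.7 CPM in KO CTX libraries, against 96.8, 57.8, 267 and 144 CPM in KO normal libraries. WT libraries had 173, 185, 109.9 and 160.4 CPM of Nr4a2 in CTX-injected muscle, against 90.2, 202, 115 and 169.7 CPM in normal muscle. Normal libraries spanned the whole range of the CTX libraries in KO, with library 2 lowest and library 3 highest in both genotypes. The log2 fold changes were 0.23 ± 0.36 in KO and 0.12 ± 0.36 in WT, with edgeR adjusted p of 0.584 and 0.771. Without KO normal library 3 the KO value was 0.75 and passed (edgeR adjusted p = 0.0382).

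Egr2, a factor tied to alternative activation of macrophages, had 172, 124, 160.2 and 161 CPM in KO CTX libraries, against 97.1, 98.8, 129 and 200 CPM in KO normal libraries. In WT the values of Egr2 were 182, 177, 137 and 136 CPM in CTX libraries, against 98.1, 142, 217 and 227 CPM in normal libraries. Female normal libraries (KO 5 and WT 5 and 6) had the 3 highest values, and the groups overlapped. Log2 fold changes were 0.24 ± 0.25 in KO and -0.12 ± 0.25 in WT. With male libraries only they were 0.50 in KO, which passed (edgeR adjusted p = 0.0183), and 0.38 in WT. With library totals the WT value of Egr2 was -0.73 and passed (edgeR adjusted p = 0.0126). Klf6, a zinc finger factor of inflammatory activation, had 1153, 1205, 1102 and 1105 CPM in KO CTX libraries, against 924, 927, 1050 and 1306 CPM in KO normal libraries. WT libraries had 1354, 1332, 1460 and 1104 CPM of Klf6 in CTX-injected muscle, against 1038, 1380, 1352 and 1266 CPM in normal muscle. The groups overlapped in both genotypes on the TMM scale, and with library totals Klf6 had log2 fold changes of -0.49 in KO and -0.55 in WT that passed (edgeR adjusted p = 0.000841 and 0.00029).

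Nr4a3, a relative of Nr4a1, had log2 fold changes of -0.32 ± 0.40 in KO and -0.17 ± 0.39 in WT, with standard errors larger than for most members. With library totals the KO value of Nr4a3 was -0.89 and passed (edgeR adjusted p = 0.0385). Ppp1r15a (GADD34), which restores translation after stress by reversing eIF2alpha phosphorylation, was called in KO, where its log2 fold change was -0.65 ± 0.15 (edgeR adjusted p = 0.00118). In WT it was -0.22 ± 0.15 (adjusted p = 0.206). The WT value was called lower with library totals (-0.85, edgeR adjusted p = 9.84e-05). It was also called with at least 5 CPM in 4 libraries (-0.39, edgeR adjusted p = 0.036). The difference between the genotypes, -0.43 ± 0.22, did not pass (edgeR interaction, unadjusted p = 0.061).

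The heat shock genes fell in every case and without overlap in either genotype. Hspb1 had the greatest fall of all members. Its libraries held 4.03, 9.34, 3.08 and 2.70 CPM in KO CTX, against 56.4, 89.8, 147 and 79.7 CPM in KO normal macrophages. WT libraries held 3.51, 1.73, 4.32 and 7.53 CPM of Hspb1 in CTX-injected muscle, against 103, 113, 53.6 and 57.0 CPM in normal muscle. The log2 fold changes were -4.29 ± 0.47 in KO and -4.25 ± 0.47 in WT (edgeR adjusted p = 7.29e-07 and 8.57e-07), or 19.5-fold and 19.1-fold lower. KO CTX library 2 and WT CTX library 4 were well above the other CTX libraries of their groups.

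Hspa1b, one of the neighbouring inducible HSP70 genes, was the highest of the 36 members per kilobase in normal muscle, at 1438 CPM per kb in KO and 1504 in WT, and stood at 122 in KO and 109.6 in WT CTX macrophages. Its level was 331, 562, 292 and 179 CPM in KO CTX libraries, against 2912, 3581, 5624 and 4003 CPM in KO normal libraries. In WT, Hspa1b lay at 177, 32.0, 381 and 639 CPM in CTX libraries, against 4514, 5505, 2980 and 3860 CPM in normal libraries. The highest WT CTX library exceeded the lowest 20.0-fold, and even so no CTX library reached a normal one. Log2 fold changes of Hspa1b were -3.56 ± 0.62 in KO and -3.78 ± 0.63 in WT (edgeR adjusted p = 8.85e-05 and 5.59e-05), and the WT value was -4.42 without CTX library 4, a move of 1.56-fold. Hspa1a, its twin, had log2 fold changes of -3.44 ± 0.53 in KO and -3.54 ± 0.54 in WT. The pair share 58.8% of the 50-base stretches of Hspa1a and 62.3% of those of Hspa1b, so counts may have been split or dropped between them. A gene on the opposite strand, Gm20481, overlaps 19.0% of the exons of Hspa1a.

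Dnajb1, the HSP40 co-chaperone that feeds clients to HSP70, had 89.0, 139, 80.9 and 79.8 CPM in KO CTX libraries, against 456, 579, 839 and 756 CPM in KO normal libraries. WT libraries had 94.3, 69.9, 89.3 and 124 CPM of Dnajb1 in CTX-injected muscle, against 617, 663, 616 and 933 CPM in normal muscle. The groups were far apart, with log2 fold changes of -2.76 ± 0.24 in KO and -2.91 ± 0.24 in WT, and Dnajb1 had the smallest p of the heat shock genes (edgeR adjusted p = 7.38e-08 and 4.46e-08). Hsph1 (HSP110), which resets HSP70 by exchanging its nucleotide, had log2 fold changes of -2.33 ± 0.49 in KO and -2.94 ± 0.51 in WT (edgeR adjusted p = 5.12e-04 and 8.00e-05).

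Hspa8, the constitutive HSC70 chaperone, had 489, 589, 609 and 515 CPM in KO CTX libraries, against 1276, 1242, 1802 and 1216 CPM in KO normal libraries. In WT, Hspa8 had 553, 514, 589 and 659 CPM in CTX libraries, against 1486, 1763, 1231 and 1399 CPM in normal libraries. The groups were tight and apart, with normal library 3 highest in both genotypes, and the log2 fold changes were -1.33 ± 0.15 in KO and -1.34 ± 0.15 in WT (edgeR adjusted p = 1.02e-06 and 9.11e-07). Per kilobase, Hspa8 was the highest heat shock gene in CTX-injected muscle, at 128 CPM per kb in KO and 135 in WT, against 322 in KO and 342 in WT normal macrophages.

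Dnaja1, another HSP40, had 111, 140.4, 107 and 92.4 CPM in KO CTX libraries, against 199.9, 224, 401 and 396 CPM in KO normal libraries. WT libraries had 95.9, 83.7, 105 and 143 CPM of Dnaja1 in CTX-injected muscle, against 259.8, 404, 278 and 428 CPM in normal muscle. Its groups did not overlap, and normal libraries 3 of both genotypes, KO 5 and WT 6 were high, with log2 fold changes of -1.44 ± 0.25 in KO and -1.68 ± 0.25 in WT (edgeR adjusted p = 7.60e-05 and 1.77e-05). Hsp90aa1, the stress-inducible HSP90, was 2.29-fold lower in KO and 2.68-fold lower in WT. Hspe1, which shares a promoter region with the HSP60 gene Hspd1, was 2.02-fold lower in KO and 2.64-fold lower in WT. Parts of Hspa8 (52.7%), Hsp90aa1 (58.5%), Hspb1 (51.6%) and Dnaja1 (28.8%) are repeated in other genes, mainly pseudogenes, counted in 50-base stretches. The counting of reads with several matches is not described in these sources, and the levels of these genes are less certain than those of Hsph1 and Dnajb1.

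Together the 36 members took 1.13 ± 0.0538% of all counts in KO CTX and 1.16 ± 0.107% in WT CTX libraries, against 5.07 ± 0.481% in KO normal and 4.87 ± 0.659% in WT normal libraries (SD, n = 4 each). Hspa1a and Hspa1b alone took 0.0523 ± 0.0214% in KO CTX and 0.0466 ± 0.0386% in WT CTX libraries, against 0.908 ± 0.197% in KO normal and 0.902 ± 0.201% in WT normal libraries. Counts of immediate early genes exceeded those of heat shock genes 6.72 ± 1.30 times in KO CTX and 8.44 ± 3.46 times in WT CTX libraries, against 2.86 ± 0.904 times in KO normal and 2.63 ± 0.845 times in WT normal libraries. Every CTX library had a higher ratio than every normal library, the lowest CTX value being 4.14 (WT library 4) and the highest normal value 3.64 (KO library 1). The ratio of the 2 kinds of gene does not depend on scaling between libraries, but the shares rest on library totals. By mean share the members were 4.48-fold lower in KO and 4.21-fold lower in WT. Scaled by TMM, the members summed to 13584 ± 823 CPM in KO CTX and 39871 ± 3830 CPM in KO normal libraries, 2.94-fold lower. In WT they summed to 14806 ± 1733 CPM in CTX and 40395 ± 3379 CPM in normal libraries, 2.73-fold lower (SD, n = 4 each).

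**Figure D3:**
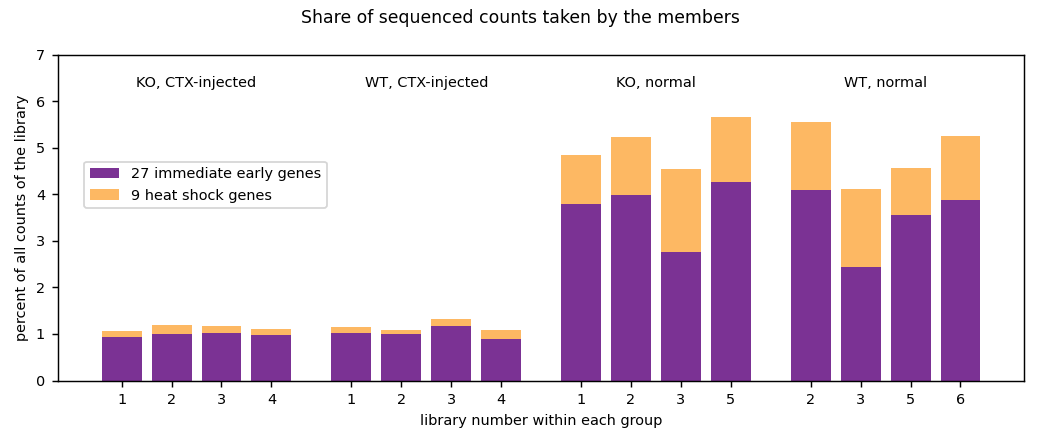
Percent of all counts of each library taken by the 27 immediate early genes (lower part of each bar) and the 9 heat shock genes (upper part), by group and library number. Bars of CTX-injected muscle reach 1.07 to 1.31% and those of normal muscle 4.11 to 5.65%.

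No member passed the test between KO and WT macrophages. In CTX-injected muscle 0 of 36 members were called by edgeR, against 0.00733% of all tested genes. An unadjusted p under 0.05 by edgeR was found for 910 of 13649 tested genes and for 2 of the 36 members. These were Dusp1, with means of 558 ± 31.7 CPM in KO CTX and 747 ± 207 CPM in WT CTX libraries and a log2 fold change of -0.42 ± 0.19 (edgeR unadjusted p = 0.0383, adjusted p = 0.705), and Ppp1r15a at -0.34 ± 0.15 (edgeR unadjusted p = 0.039, adjusted p = 0.706). Fosb libraries did not overlap, with 90.9, 99.8, 129 and 122 CPM in KO and 147, 143, 178 and 137 CPM in WT CTX libraries, and its log2 fold change of -0.45 ± 0.29 was not called. Fosb was singled out after its values were seen. The share of all tested genes without overlap in this comparison was not counted, so the gap is not read as a genotype difference. Log2 fold changes of the 36 members ran from -0.45 to 0.27, around a median of -0.03 against -0.02 for all tested genes.

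In normal muscle 0 of 36 members were called between KO and WT, against 0% of all tested genes. No member had an unadjusted p under 0.05 by edgeR, against 390 of 13649 tested genes. Log2 fold changes ran from -0.38 to 0.19. The difference between the injury changes of KO and WT (interaction) was called for 0 of 36 members and for 0% of all tested genes. None of the members had an unadjusted p under 0.05 there by edgeR, against 646 of 13649 tested genes. Interaction values of the members ran from -0.43 for Ppp1r15a to 0.61 for Hsph1. DESeq2 and limma voom also called 0 members in these 3 comparisons. Of all genes with an adjusted p, DESeq2 called 0.315% between KO and WT in CTX-injected muscle, 0% in normal muscle and 0.359% in the interaction, and limma voom called 0.821%, 0% and 0.0806%. The members' log2 fold changes spread more widely with limma voom, from -0.43 to 1.06 in CTX-injected muscle, -0.82 to 0.36 in normal muscle and -0.59 to 1.31 in the interaction. DESeq2 put 2 members under an unadjusted p of 0.05 between KO and WT in CTX-injected muscle, 0 in normal muscle and 1 in the interaction. With limma voom there were 4, 7 and 1. The share of all genes under that unadjusted p was not counted for DESeq2 or limma voom. A p that misses the threshold does not show equal levels, and standard errors of the KO against WT differences reached 0.563 on the log2 scale.

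Within the CTX groups, heat shock genes varied more between libraries than immediate early genes did. The median SD over libraries was 0.364 in KO CTX and 0.422 in WT CTX for heat shock genes on the log2 scale, against 0.139 in KO and 0.242 in WT for immediate early genes and 0.172 in KO and 0.208 in WT for all tested genes. In normal muscle it was 0.397 in KO and 0.368 in WT for heat shock genes, 0.322 in KO and 0.383 in WT for immediate early genes, and 0.275 in KO and 0.264 in WT for all tested genes. WT CTX library 4 had the highest value of all 9 heat shock genes in its group and library 2 the lowest of all 9. Library 4 also had the lowest value of 19 of 27 immediate early genes. In KO CTX, library 2 was highest for 8 of 9 heat shock genes and library 4 lowest for 8 of 9. The 2 kinds of gene did not follow the same order of libraries. The share of all tested genes with their highest or lowest value in each of these libraries was not counted.

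In normal muscle library 3 of both genotypes had high heat shock genes and a set of low immediate early genes. KO library 3 had the highest value of 9 of 9 heat shock genes in its group, and WT library 3 the highest of 7 of 9. In the same libraries 15 immediate early genes had their lowest value in both genotypes, among them Fos, Jun, Egr1, Ier2, Klf2, Btg2 and Dusp1. Fos, for example, lay at 1710 CPM in KO normal library 3, below 2803 to 3535 CPM in the other KO normal libraries. WT normal library 3 held 1406 CPM of Fos, below 2393 to 3476 CPM in the others. Hsph1 in turn lay at 974 CPM in KO library 3 and at 229 to 554 CPM in the other KO normal libraries. Maff and Nr4a2 were highest in library 3 of both genotypes. The share of all tested genes highest or lowest in library 3 was not counted, so these counts are not read as particular to the members. The ratio of immediate early to heat shock counts was lowest in these libraries, at 1.56 in KO and 1.47 in WT, against 2.77 to 3.64 in the other 6 normal libraries.

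**Figure D4:**
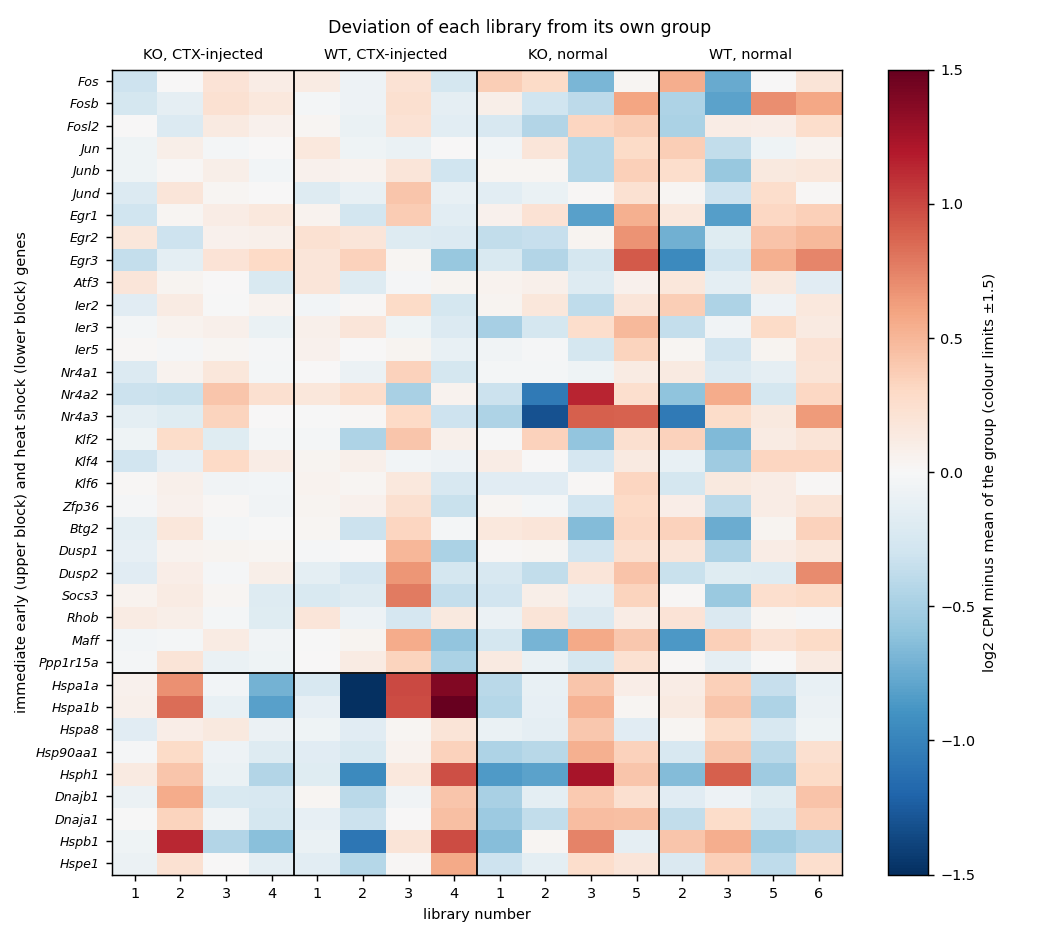
Log2 CPM of each member in each library minus the mean of its own group (colour, limits ±1.5, which Hspa1a and Hspa1b exceed in WT CTX libraries), with libraries in columns by group and number and genes in rows. Heat shock rows are high and many immediate early rows low in normal library 3 of both genotypes, and in KO normal library 5 all 27 immediate early rows are above their mean.

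KO normal library 5 lay above its group mean for 27 of 27 immediate early genes, WT normal library 6 for 25 and WT normal library 5 for 21. These 3 are the female libraries, and KO 5 and WT 6 are those of highest Malat1. The share of all tested genes above the group mean in each library was not counted. These counts are therefore not read as particular to the members. With male libraries only, which leaves 3 KO and 2 WT normal libraries, 20 immediate early genes fell in KO and 17 in WT, with medians of -1.30 in KO and -0.90 in WT, and 9 heat shock genes fell in each genotype. In that fit 39% of all tested genes were called lower in KO and 35.2% in WT. The 2 calls lost in WT were Junb (-0.37) and Dusp2 (-0.32). Without the 2 libraries of highest Malat1, 20 immediate early genes fell in KO and 18 in WT, with medians of -1.31 in KO and -1.16 in WT, and the loss in WT was Dusp2 (-0.35). Of all tested genes, 39.2% in KO and 38.6% in WT were then called lower.

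Markers of other cells also differed between CTX-injected and normal libraries. Summed muscle fibre markers (10 genes) lay at 4.62 to 7.64 CPM in KO CTX and 5.88 to 8.21 CPM in WT CTX, against 20.0 to 49.0 CPM in KO normal and 19.9 to 47.4 CPM in WT normal libraries. Dendritic cell markers (8 genes) lay at 30.8 to 34.0 CPM in KO CTX and 39.6 to 52.0 CPM in WT CTX, against 399.7 to 664 CPM in KO normal and 306 to 496 CPM in WT normal libraries. The 8 T and NK cell markers in the table summed to 3.86 to 6.75 CPM in KO CTX and 0.997 to 4.59 CPM in WT CTX, against 29.3 to 75.6 CPM in KO normal and 25.8 to 47.9 CPM in WT normal libraries, with Ncr1 at 0 in WT CTX. Endothelial markers (10 genes) summed to 71.0 to 90.1 CPM in KO CTX and 77.0 to 91.5 CPM in WT CTX, against 193 to 271 CPM in KO normal and 148 to 203 CPM in WT normal libraries. Neutrophil markers (9 in the table) summed to 273 to 1154 CPM in KO CTX and 193 to 449 CPM in WT CTX, against 304 to 6538 CPM in KO normal and 359 to 4440 CPM in WT normal libraries. Fibroblast markers (9 genes) summed to 609 to 665 CPM in KO CTX and 689.5 to 755 CPM in WT CTX, against 210.2 to 922 CPM in KO normal and 272 to 578 CPM in WT normal libraries. Most fibroblast markers fell, 7 of 9 in KO and 6 of 9 in WT. Of all tested genes, 40.2% were called lower in KO and 39.4% in WT. The CTX sums of the fibroblast markers were mainly Pdpn, which macrophages can express too. Pdpn lay at 516 to 568 CPM in KO CTX and 559.6 to 632 CPM in WT CTX libraries. In normal libraries it lay at 2.93 to 8.19 CPM in KO and 1.80 to 7.91 CPM in WT. The nuclear RNAs Malat1 and Neat1, listed for RNA quality, both fell in each genotype by edgeR. The log2 fold changes of Malat1 were -1.54 in KO and -1.89 in WT (edgeR adjusted p = 0.021 and 0.00699). Those of Neat1 were -2.42 in KO and -2.96 in WT (edgeR adjusted p = 0.00609 and 0.00175). The summed macrophage markers were 15732 to 18707 CPM in KO CTX and 22675 to 25772 CPM in WT CTX, against 12658 to 18499.6 CPM in KO normal and 14821 to 22319 CPM in WT normal libraries. The sums hide a split, since 4 of the 10 macrophage markers were called higher and 5 lower in KO, and 5 higher and 5 lower in WT. The part of the other cells, of RNA quality and of tissue handling in the lower immediate early and heat shock counts was not tested.

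Related genes outside the 36 did not all move the same way, and their lists were also chosen with earlier results known. Of 41 tested other immediate early genes, 14 rose and 17 fell in KO, and 14 rose and 19 fell in WT. That is 34.1% rising and 41.5% falling in KO and 34.1% rising and 46.3% falling in WT, against 33.3% called higher in each genotype and 40.2% in KO and 39.4% in WT called lower of all tested genes. Rgs2, which damps G protein signalling, averaged 65.8 ± 8.13 CPM in KO CTX and 308 ± 53.3 CPM in KO normal libraries. WT means of Rgs2 were 56.3 ± 5.57 CPM in CTX and 288 ± 49.6 CPM in normal libraries. Cyr61, a matricellular protein, fell, with log2 fold changes of -3.87 in KO and -2.77 in WT. Dusp4, a phosphatase of ERK and JNK, rose by 2.13 in KO and 2.52 in WT, opposite to its relatives Dusp1 and Dusp2.

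Among 11 AP-1 partners, 4 rose and 5 fell in KO, and 4 rose and 4 fell in WT. That is 36.4% rising and 45.5% falling in KO, and 36.4% rising and 36.4% falling in WT. These shares are near those of all tested genes, 33.3% called higher in each genotype and 40.2% in KO and 39.4% in WT called lower. Atf4, which drives amino acid stress genes, rose by 1.40 in KO and 1.22 in WT on the log2 scale. Batf3, a factor that dendritic cells need and that is in the dendritic cell marker list too, fell, with values of -4.19 in KO and -3.85 in WT, and so did Batf2, with -1.26 in KO and -2.21 in WT. Of 26 upstream factors and kinases, 17 rose and 4 fell in KO, and 18 rose and 5 fell in WT. With library totals 8 rose and 8 fell in KO and 7 rose and 8 fell in WT. On that scale 14.1% of all tested genes were called higher in KO and 14.2% in WT, and 61.5% lower in KO and 61.2% in WT. Mkl1, the actin-regulated partner of serum response factor, fell, with log2 fold changes of -2.01 in KO and -1.87 in WT. Atf1, a CREB relative, rose by 1.96 in KO and 1.91 in WT, and Map2k2, the kinase that activates ERK, rose by 1.29 in both.

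TRiC and most chaperones of the endoplasmic reticulum were higher in CTX-injected muscle, while the 9 heat shock members were lower. All 8 subunits of TRiC, the cytosolic ring that folds actin and tubulin, rose in both genotypes, with a median of 1.199 in KO and 1.183 in WT, and all 8 did so with library totals as well. Cct3, a TRiC subunit, averaged 258 ± 11.9 CPM in KO CTX and 92.3 ± 8.90 CPM in KO normal libraries. WT means of Cct3 were 269 ± 12 CPM in CTX and 92.8 ± 4.78 CPM in normal libraries. Cct2 rose by 1.07 in KO and 1.17 in WT and Tcp1 by 1.26 in KO and 1.31 in WT. Of 18 chaperones of the endoplasmic reticulum, 16 rose and 2 fell in KO, and 16 rose and 1 fell in WT. On the scale of library totals 13 rose and 2 fell in each genotype. Of all tested genes, 33.3% were called higher in each genotype with TMM, and 14.1% in KO and 14.2% in WT with library totals. Pdia6, a disulfide isomerase, averaged 1076 ± 90.4 CPM in KO CTX and 260.1 ± 17.7 CPM in KO normal libraries. WT means of Pdia6 were 1115 ± 107 CPM in CTX and 257 ± 26.0 CPM in normal libraries. Creld2 rose by 2.18 in KO and 2.39 in WT, and Hyou1, an HSP70 relative of that compartment, by 1.94 in KO and 1.90 in WT.

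Of 7 mitochondrial chaperones, 4 rose and 1 fell in KO, and 5 rose and 1 fell in WT. Hspd1, the HSP60 gene, was the 1 that fell, with log2 fold changes of -0.92 in KO and -1.18 in WT (edgeR adjusted p = 0.00769 and 0.00141). With library totals 2 rose and 4 fell in each genotype. Grpel1, the nucleotide exchange factor of the mitochondrial HSP70, rose by 1.26 in KO and 1.17 in WT, Hspa9, that HSP70 itself, by 1.28 in KO and 1.10 in WT, and the protease subunit Clpp by 0.54 in KO and 0.94 in WT. With library totals the WT call of Clpp was lost (0.32, edgeR adjusted p = 0.0701). Of 31 cytosolic co-chaperones and heat shock factors, 14 rose and 7 fell in KO, and 13 rose and 5 fell in WT. With library totals 7 rose and 16 fell in KO and 5 rose and 17 fell in WT. On that scale 61.5% of all tested genes were called lower in KO and 61.2% in WT, and 14.1% higher in KO and 14.2% in WT. The falls in the mitochondrial and the cytosolic list did not exceed these shares. With TMM 33.3% of all tested genes were called higher in each genotype, and 40.2% lower in KO and 39.4% in WT. Hspbp1, an inhibitor of HSP70, rose by 1.39 in both genotypes and Bag1, an HSP70 cofactor, by 1.28 in KO and 1.23 in WT, whereas Dnaja4, an HSP40, fell, with log2 fold changes of -3.69 in KO and -3.22 in WT. No gene of these 7 lists was called between KO and WT in CTX-injected or normal muscle. The medians, counts and names are descriptions with no test over a list.

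**Figure D5:**
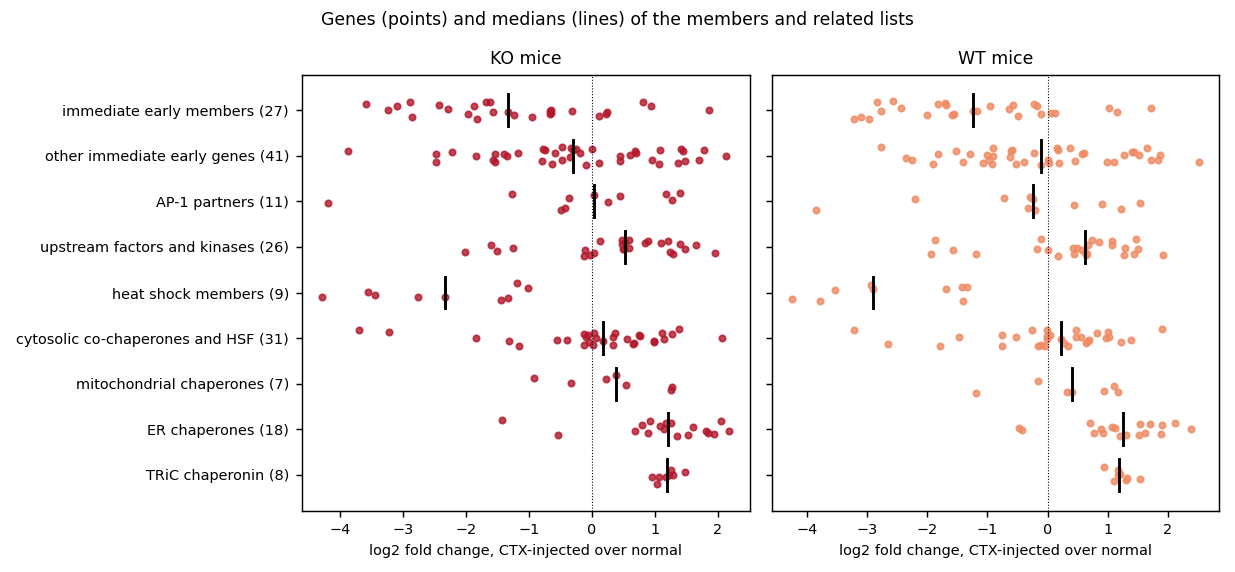
Log2 fold change in CTX-injected over normal muscle of each tested gene (points) and the median (line) of the 2 kinds of member and 7 related lists, with the number of genes in brackets, for KO (left) and WT (right). The heat shock members have the lowest median and lie wholly below 0, while all TRiC chaperonin genes lie above 0.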

How the data were processed

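RNA of F4/80-positive macrophages was sequenced in 16 libraries, 4 for each of 4 groups taken from the labels. The authors deposited raw read counts per gene symbol. The submitters' processing notes name HISAT2 2.1.0 and featureCounts (Subread 1.6.2) with build mm10, beside cutadapt 1.18 and FastQC 0.11.7. The sources used here do not give the annotation, the strand setting or the counting of reads with several matches. Totals ran from 17051892 to 23097420 counts, and intervals from counts would cover counting error only.

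Genes were filtered with filterByExpr by group, scaled with TMM and tested with edgeR 4.0.16 (R 4.3.3, quasi-likelihood, 1 coefficient per group, Benjamini-Hochberg, threshold 0.05). The test was also run on simulated counts. Far fewer genes were changed there than were called with CTX injection here, so that run does not check the scaling. Lengths came from GENCODE M21. The members, lists and tests were chosen with earlier results of these data known. Members were given per library if among the 4 of smallest p of their kind in WT, opposite in direction to most, highest per length or called between genotypes, and others were added as stated. Of each related list the 3 genes of smallest p in WT were named, and Hspd1 was added to them. Alternatives were other scalings, filters and tools (DESeq2 1.42.0, limma 3.58.1), a replicate block and left-out libraries. Deviations of same-numbered KO and WT normal libraries correlated over genes (0.644, 0.567 and 0.244), and the numbers were taken as pairs there from these data alone, since no label says so. Differently numbered normal libraries also correlated, KO 5 with WT 6 at 0.588, above KO 5 with WT 5, and KO 1 with WT 2 at 0.467. In CTX-injected muscle the correlations were -0.124, -0.0434, -0.0580 and 0.00460, which is no pairing. The replicate block nevertheless gave all libraries of the same number, CTX-injected and normal alike, a shared coefficient. Same-numbered CTX and normal libraries of a genotype correlated at -0.0569 to 0.0682, so these data give no ground for that part of the block. No 2 libraries of a group were alike within sampling noise.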

Additional observations from a re-analysis of the deposited data

Results flagged for a closer look

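In 13 of 144 sets of 4 libraries, 1 library of a group lay far from the other 3, where chance alone gives about 1 in 20 sets. WT CTX library 3 was high for Jund (957.3 CPM, the others 630.7 to 665.3), Dusp2 (156.6 CPM, the others 82.4 to 89.33) and Socs3 (2044 CPM, the others 933 to 1041). KO CTX library 1 was low for Dusp1 (510.9 CPM, the others 570.2 to 576.4). KO CTX library 3 was high for Maff (107.2 CPM, the others 95.07 to 96.23), and KO CTX library 2 for Dnajb1 (138.7 CPM, the others 79.8 to 88.98). In KO normal muscle, library 5 was high for Egr3 (17.83 CPM, the others 6.878 to 7.992), library 3 was high for Hspa8 (1802 CPM, the others 1216 to 1276) and library 3 was low for Atf3 (1228 CPM, the others 1462 to 1484). In WT normal muscle, library 3 was low for Dusp1 (1604 CPM, the others 2397 to 2503) and library 2 for Maff (33.88 CPM, the others 71.72 to 79.15). WT normal library 6 was high for Dusp2 (251.2 CPM, the others 121.9 to 134.6) and Dnajb1 (933.3 CPM, the others 616.2 to 662.9). The cause of these values was not tested.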

How the results depend on the processing

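All 9 heat shock genes stayed called lower in both genotypes under every alternative run. Immediate early genes called lower numbered 17 to 22 in WT and 19 to 22 in KO. With library totals the number was 22 in each genotype, against 61.2% of all tested genes called lower in WT and 61.5% in KO. Immediate early genes called higher in KO were 3, but 1 with library totals, against 14.1% of all tested genes. They were 5 with limma voom, 4 with the replicate block and 4 with male libraries only, and 3 to 4 with 1 library left out. For these other settings the share of all tested genes called higher is not printed. Those counts are therefore not read as particular to the members. Over 72 values of single members under 26 alternatives, leaving out 1 library in turn kept 1134 calls and directions, and the other alternatives kept 688. With the replicate block, 17 immediate early genes were lower in WT and 20 in KO. The share of all tested genes called lower is not printed for that setting, and these counts are read with the same limit. No genotype comparison gained a member (0 of 36), nor with the block within normal or CTX-injected muscle, added after seeing the data. Of all tested genes, the replicate block called 2 between KO and WT in CTX-injected muscle, 0 in normal muscle and 0 in the interaction. The block within normal or CTX-injected muscle called 4 in CTX-injected and 0 in normal muscle. Signs that turned belonged to genes not called by the main edgeR test. With library totals, Egr2 in KO was -0.36, Nr4a2 -0.34 in KO and -0.48 in WT, and Klf6 -0.49 in KO and -0.55 in WT. Of these, Klf6 was called lower in both genotypes (edgeR adjusted p = 0.000841 and 0.00029). Egr2 in KO kept its sign and was called higher with limma voom (0.51, adjusted p = 0.0293) and the replicate block (0.53, edgeR adjusted p = 0.0131). So was Nr4a2 in KO with limma voom (0.76, adjusted p = 0.0319). With at least 5 CPM in 4 libraries, Nr4a2 in WT was -0.044, and Klf6 -0.058 in KO and -0.11 in WT. The replicate block gave 0.41 for Egr2 in WT, and 0.17 in KO and 0.59 in WT for Nr4a3. Male libraries only gave 0.38 for Egr2 and 0.19 for Nr4a3 in WT, and limma voom 0.41 for Nr4a3 in KO. Without both libraries of highest Malat1, Egr2 in WT was 0.024 and Nr4a3 0.034. With 1 library left out, Egr2 in WT ran from -0.31 to 0.028, Nr4a2 from -0.031 to 0.75 in KO and -0.050 to 0.32 in WT, Nr4a3 in WT from -0.42 to 0.038 and Klf6 in WT from -0.025 to 0.14. The cause was not tested. With limma voom the heat shock median in KO was -1.70, and without KO normal library 3 it was -1.76 by edgeR. The lowest member, Egr3, had 25 to 48 reads in CTX libraries, where counting error alone is 14.4 to 20.0%, against a spread between libraries of 21.6% in KO and 26.0% in WT, so depth bears on its CTX levels. With 4 libraries a group, 0 calls between KO and WT do not show equal levels.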

Other observations

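Per kilobase of exon, the members changed places between the groups. In CTX-injected muscle the 5 highest were Ier3, Junb, Jund, Zfp36 and Socs3, in that order in both genotypes, with Junb at 791 CPM per kb in KO and 842 in WT. In normal muscle the 3 highest were Hspa1b, Jund and Junb in both genotypes, with Junb at 1256 CPM per kb in KO and 1187 in WT. Ier3 was the 15th member in KO normal and the 14th in WT normal macrophages. Hspa1b was the 14th in CTX-injected muscle of both genotypes, at 122 CPM per kb in KO and 109.6 in WT. These orders are descriptions, and levels of Jund, Hspa1a and Hspa1b carry the limits on shared sequence given above.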
